A study of Homo sapiens with 6 samples.

Results

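The peaks that tagged HSP70 proteins left on 18S ribosomal RNA were placed along the RNA, base by base, in 4 FLASH-seq peak lists. The members were the 4 copies of the 18S sequence that the RefSeq table for GRCh38.p14 puts on chromosome 21: the genes RNA18SN1, RNA18SN2 and RNA18SN3, and the annotated pseudogene RNA18SP5. They were chosen by position, with earlier results of these data known, out of 58998 genes of the table on 25 chromosomes. A peak counted as a member's peak when it shared at least 1 bp with the copy, and 241 of the 9974 peaks in the 4 lists did so. RNA18SN1, which lies at chr21:8436876-8438744 and is 1869 bases long, was the main copy. The other copies served as checks: RNA18SN2 at chr21:8209631-8211499, RNA18SN3 at chr21:8392666-8394534 and RNA18SP5, of 1863 bases, at chr21:8253842-8255704.

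The cells were HEK293 Flp-In T-Rex, a human embryonic kidney cell line that takes up an inducible transgene at a fixed place. They expressed GFP, HSPA1A or HSPA8 with a 3xFLAG-HBH tag, switched on with 1 µg/ml tetracycline, and each bait had 2 biological replicates. The cells' own HSP70 proteins were untagged and so not purified as baits. FLASH-seq crosslinks RNA to protein with UV-C light, purifies the tagged bait on nickel and streptavidin beads, trims the RNA with RNase I and sequences what stays attached. The 4 lists analysed here were both replicates of HSPA1A and both of HSPA8; GFP peaks were not analysed here. No control bait therefore gives a background for these values, 18S RNA is among the most abundant RNAs of any cell, and the part of RNA abundance in the peaks was not tested.

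18S RNA is the RNA of the small ribosomal subunit. It is cut out of a long precursor made by RNA polymerase I, which also carries the 5.8S and 28S RNAs, and the cell holds many near-identical copies of the gene. Its 3′ end is freed by a late cut in the cytoplasm, and small nucleolar RNAs such as U3 and U14 are needed to make it. HSPA1A is the stress-inducible HSP70 chaperone and HSPA8 its constitutive relative, which folds new proteins at the ribosome.

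The lists held 2744 and 2059 peaks for HSPA1A replicates 1 and 2, and 3131 and 2040 for HSPA8 replicates 1 and 2. On the 4 copies together lay 50, 71, 41 and 79 of them in the same order. Each peak has a whole-number score whose meaning the authors do not state, so scores were compared only within a list. Read depth is unknown. The copies are near-identical and the handling of reads that map to several places is not given, so the reads behind a peak were not tied to a copy. The 4 copies cannot be counted as independent measurements, and much of their signal may be the same signal given several times. For RNA18SP5 this holds only in part. It had no peak over some stretches, such as 1743 to 1783, whose positions were covered on RNA18SN1 in all 4 lists.

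**Figure D1:**
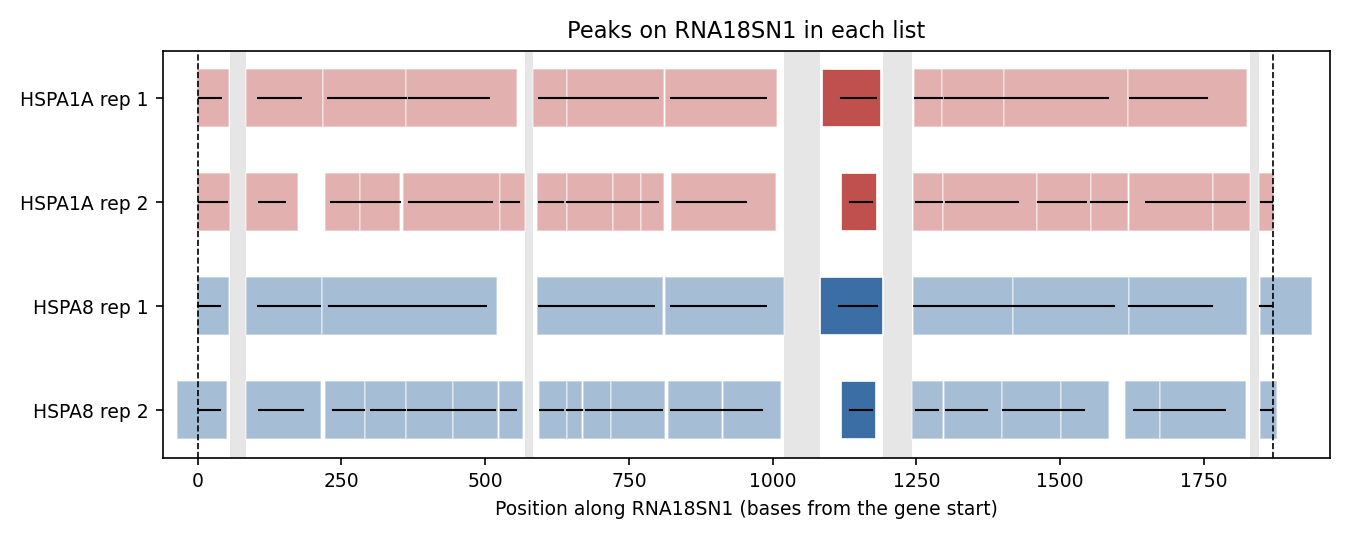
Peaks of each list along RNA18SN1; the horizontal axis is the position in bases from the gene start, dashed lines mark both gene ends, and each row is 1 list. Boxes are peaks, solid for the highest-scoring peak of a list, black lines are the authors' inner interval of each peak, and grey bands are the 5 stretches with no peak in any list.

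Peaks covered most of 18S RNA in every list. All of the 12, 19, 10 and 21 peaks on RNA18SN1 (HSPA1A replicates 1 and 2, HSPA8 replicates 1 and 2) lay on the plus strand, from which the gene reads 5′ to 3′, and none on the minus strand. They covered 87.0% and 83.6% of its bases for HSPA1A and 87.2% and 83.9% for HSPA8. Of the 1869 bases, 1435 (76.8%) lay under a peak in all 4 lists and 167 (8.94%) in none. A further 150 bases were covered in 3 lists, 79 in 2 and 38 in 1. Even the lowest-scoring peak on RNA18SN1 scored above 87.6% and 68.2% of its list for HSPA1A and above 85.3% and 57.3% for HSPA8. On RNA18SP5 the lowest-scoring peak stood lower, above 82.8% and 54.6% of its list for HSPA1A and 24.7% and 6.57% for HSPA8. On RNA18SN1 both lists numbered 1 covered more bases with fewer and wider peaks than both lists numbered 2. Median peak width was 139 and 188 bases in the lists numbered 1 (HSPA1A, then HSPA8) and 64 and 78 bases in those numbered 2.

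The highest score on 18S RNA fell on the same site in every list. On RNA18SN1 the best peak of HSPA1A replicate 1 ran from position 1087 to 1188, counted from 1 at the gene start, with a score of 4622. In HSPA1A replicate 2 it ran from 1119 to 1181 with a score of 1486. In HSPA8 replicate 1 it ran from 1082 to 1191 with a score of 5656, and in HSPA8 replicate 2 from 1119 to 1179 with a score of 977. These peaks ranked 1, 4, 3 and 4 among all peaks of their lists, scaffold copies of 18S included for HSPA8. The 61 bases from 1119 to 1179, at chr21:8437994-8438054, were shared by all 4 best peaks.

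The authors' files also give each peak an inner interval, of unstated meaning. For the best peak it was the same in both lists numbered 2, from position 1135 to 1172, and those 38 bases lay inside the wider inner intervals of the lists numbered 1. How far this site stood above the rest of the RNA differed between lists. The next score on RNA18SN1 was 2822 in HSPA1A replicate 1 and 4881 in HSPA8 replicate 1, so the best was 1.64 and 1.16 times the next. In the lists numbered 2 the next scores were 279 for HSPA1A and 207 for HSPA8, and the best was 5.33 and 4.72 times the next. In both lists numbered 1 the second peak lay in the 3′ part of the RNA, from 1403 to 1617 and from 1419 to 1619. In HSPA1A replicate 2 it ran from 1296 to 1460, and in HSPA8 replicate 2 from 1675 to 1822. On RNA18SP5 the second peak of HSPA1A replicates 1 and 2 ran from 810 to 1004 and from 820 to 1002. For HSPA8 it ran from 1242 to 1414 and from 1296 to 1395 there.

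On RNA18SN1, wide peaks tended to carry high scores in 3 of the 4 lists, which bears on these orders. Across the peaks on RNA18SN1, Spearman's rho between width and score was 0.66 over 12 peaks and 0.75 over 19 in the HSPA1A lists, and 0.37 over 10 and 0.68 over 21 in the HSPA8 lists. In HSPA8 replicate 1 rho was -0.12 over 9 peaks on RNA18SN2 and on RNA18SN3, and 0.77 over 13 on RNA18SP5. Neighbouring peaks of a list share a library and are not independent. The best peak on RNA18SN1 was narrower than the median peak in all 4 lists. It was 102 and 63 bases wide for HSPA1A, against medians of 139 and 64, and 110 and 61 bases for HSPA8, against 188 and 78.

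**Figure D2:**
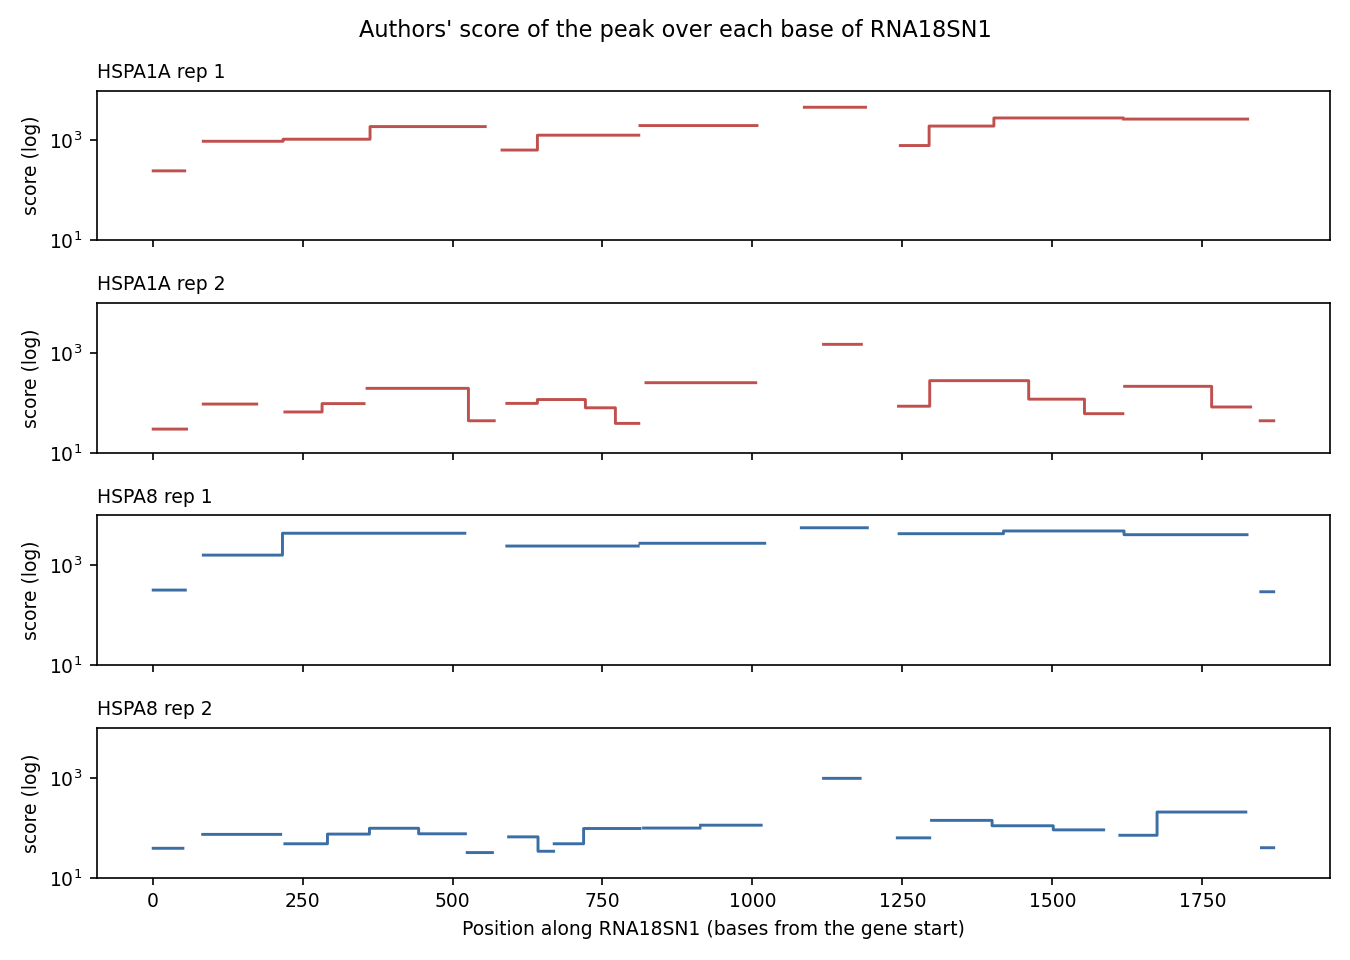
Authors' score of the peak over each base of RNA18SN1, on a log axis, against the position in bases from the gene start, with 1 panel per list; breaks in a line are bases under no peak. In each panel the highest step lies between positions 1082 and 1191, with a score of 4622, 1486, 5656 and 977 from top to bottom.

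Upstream of this site, 8 stretches of at least 10 bases were under a peak in all 4 lists. From the 5′ end they were 1 to 50, 85 to 173, 221 to 352, 358 to 520, 594 to 668, 670 to 809, 823 to 912 and 914 to 1005. The peak at the 5′ end of RNA18SN1 was among the weakest on this copy, with scores of 247 and 30 for HSPA1A and 321 and 39 for HSPA8. On RNA18SN2 the first peak was wider and scored 1510 and 158 for HSPA1A and 2465 and 62 for HSPA8. On RNA18SN3 it scored 1511, 158, 2463 and 62 in the same order. The strongest signal of the 5′ part of RNA18SN1 differed between lists. In HSPA8 replicate 1 a peak of 304 bases from 217 to 520 had a score of 4394. In the other lists the last peak before the main site scored highest in this part. It ran from 813 to 1007 with a score of 1989 for HSPA1A replicate 1, from 823 to 1005 with 254 for HSPA1A replicate 2, and from 914 to 1014 with 113 for HSPA8 replicate 2.

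Downstream, 3 further stretches of at least 10 bases were under a peak in all 4 lists: 1247 to 1295, 1299 to 1585 and 1621 to 1822. The stretch of 287 bases from 1299 to 1585 was the longest on the RNA. Peaks over the last of these stretches scored 2683 in HSPA1A replicate 1 and 4111 in HSPA8 replicate 1, where a single peak spanned it. In the lists numbered 2 it was split at 1765 and 1766 for HSPA1A, with scores of 215 and 83, and at 1674 and 1675 for HSPA8, with scores of 71 and 207.

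Some gaps recurred in every list. Of the 5 stretches under no peak in any list, the longest was the 61 bases from 1021 to 1081, at chr21:8437896-8437956, just upstream of the best peak. The next, 50 bases from 1192 to 1241 at chr21:8438067-8438116, lay just downstream of it, so on RNA18SN1 the strongest site stood between the 2 longest gaps. This did not hold on RNA18SP5, where a gap of 57 bases from 524 to 580 exceeded the 49 bases downstream of the site, 1190 to 1238. The other gaps of RNA18SN1 were 57 to 83, 570 to 582 and 1831 to 1846. A gap says only that no peak was called there. It cannot be told apart here from bases that reads could not be mapped to or that RNase I or library preparation removed.

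At the ends of RNA18SN1, inner intervals mostly stopped at the annotated limits of the gene while outer ones ran past them. In all 4 lists the first peak on RNA18SN1 reached upstream of the gene start, by 1 base in each HSPA1A list and by 2 and 36 bases in the HSPA8 lists. Its inner interval nevertheless began at position 2 in both HSPA1A lists and at position 1 in both HSPA8 lists. At the 3′ end HSPA1A replicate 1 had no peak over the last 44 bases. The last peaks of the other 3 lists ran past the gene end by 3 bases for HSPA1A replicate 2 and by 69 and 8 bases for the HSPA8 replicates. All 3 had inner intervals that ended at base 1869, the last of the gene. On RNA18SN2 and RNA18SN3 the inner interval also ended at the last base in 3 of 4 lists. It began at position 1 or 2 in 1 of 4 lists on each of these copies, where the first peak was wider and ended at 217, 178, 216 and 96. The outer limits of the first peak on both copies began at or after position 1 in 3 of 4 lists, and only HSPA8 replicate 2 reached upstream, by 29 bases (position -28). At the 3′ end of both copies HSPA1A replicate 2 stopped at the last base, and HSPA8 replicate 1 ran 33 bases past it. On RNA18SP5 it began at 1 or 2 and ended at the last base in 4 of 4 lists. There only HSPA8 replicate 2 had an outer limit past the end, by 4 bases.

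Whether the baits differed on 18S RNA was examined for the number of peaks, the covered share, its position and the order of scores. The content of the files changed with the bait. In HSPA8 replicates 1 and 2, 353 and 617 peaks lay on scaffolds, against 0 in each HSPA1A list. Whether the lists of each bait were also prepared or processed apart was not tested. A difference between baits, or the lack of one, cannot be separated from such a difference here. With 2 lists per bait an exact permutation test over the 6 orders of labels cannot give a p below 0.333. Both baits had a mean of 15.5 peaks on RNA18SN1, with an SD of 4.95 over the HSPA1A lists and 7.78 over the HSPA8 lists (n = 2 each). The counts interleaved (p = 1, two-sided exact permutation test). The mean covered share was 85.3% ± 2.42 over the HSPA1A lists and 85.6% ± 2.27 over the HSPA8 lists (SD, n = 2 each; p = 0.667 by the same exact test). The difference of -0.27 percentage points was smaller than the spread between replicates. It took the opposite sign, 0.32, when a peak had to lie by at least 50% of its length inside the gene.

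The centre of the covered bases lay at position 917 and 949 for HSPA1A and 941 and 917 for HSPA8, and the baits interleaved (p = 1 by the same exact test). The 4 copies together took 1.82% and 3.45% of all HSPA1A peaks and 1.31% and 3.87% of all HSPA8 peaks. Their means of 2.64% ± 1.15 and 2.59% ± 1.81 (SD, n = 2 each) differed by 0.0442 percentage points (p = 1 by the same exact test). Counted over the 25 chromosomes listed in all 4 files, the difference was -0.879 and so of opposite sign (exact permutation test, p = 1). The best peak on RNA18SN1 scored above 99.96% and 99.81% of its list for HSPA1A and above 99.90% and 99.75% for HSPA8. The mean difference of 0.0551 percentage points lay within the spread of the replicates (p = 0.667 by the same exact test).

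Overlap of positions was as high between baits as within them in these lists. The Jaccard index, the shared covered bases as a percentage of the bases covered in either list, was 90.3% between the HSPA1A replicates and 90.5% between the HSPA8 replicates. Between baits it was 94.6% for the lists numbered 1 and 92.3% for those numbered 2, and 90.7% and 88.9% for the crossed pairs. The within-bait mean was 90.4% and the between-bait mean 91.6%, and they differed by -1.24 percentage points (p = 0.667 by exact permutation over the 3 splits, which cannot go below 0.333). This p is 1-sided, for an overlap within baits above that between baits. Since each list covers over 83% of the RNA, any list overlaps another widely. No stretch of at least 10 bases was covered in both lists of a bait and in neither of the other. The longest of this kind were 3 bases for HSPA1A, from 522 to 524, and 7 bases for HSPA8, from 1008 to 1014. The second of these reached 11 bases, 1008 to 1018, on RNA18SN2 and RNA18SN3. Single lists rarely stood alone: 8 and 11 bases of RNA18SN1 were covered by a lone HSPA1A list (replicate 1, then 2) and 14 and 5 by a lone HSPA8 list. Conversely, 23, 53, 32 and 42 bases were missing from that list alone.

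The order of scores along the RNA was shared in part. RNA18SN1 was divided into 19 windows of 100 bases, the last one shorter, and each window was given the highest score over it. Spearman's rho between lists was 0.62 within HSPA1A and 0.48 within HSPA8, and from 0.50 to 0.82 between baits, highest for HSPA1A replicate 1 with HSPA8 replicate 2. Windows under a wide peak share its score, so these are descriptions without a test. Exact peak limits were less often shared. Within 2 bases, 5 of 12 starts of HSPA1A replicate 1 recurred in HSPA1A replicate 2, and 2 of 10 starts of HSPA8 replicate 1 in HSPA8 replicate 2. Between baits, 6 of 10 starts of HSPA8 replicate 1 recurred in HSPA1A replicate 1, and 7 of 19 of HSPA1A replicate 2 in HSPA8 replicate 2. The start at position 84 or 85 of RNA18SN1, after the first gap, was the only start that recurred within 1 base in all 4 lists. RNA18SN2 and RNA18SN3 lacked this gap and had no start there.

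**Figure D3:**
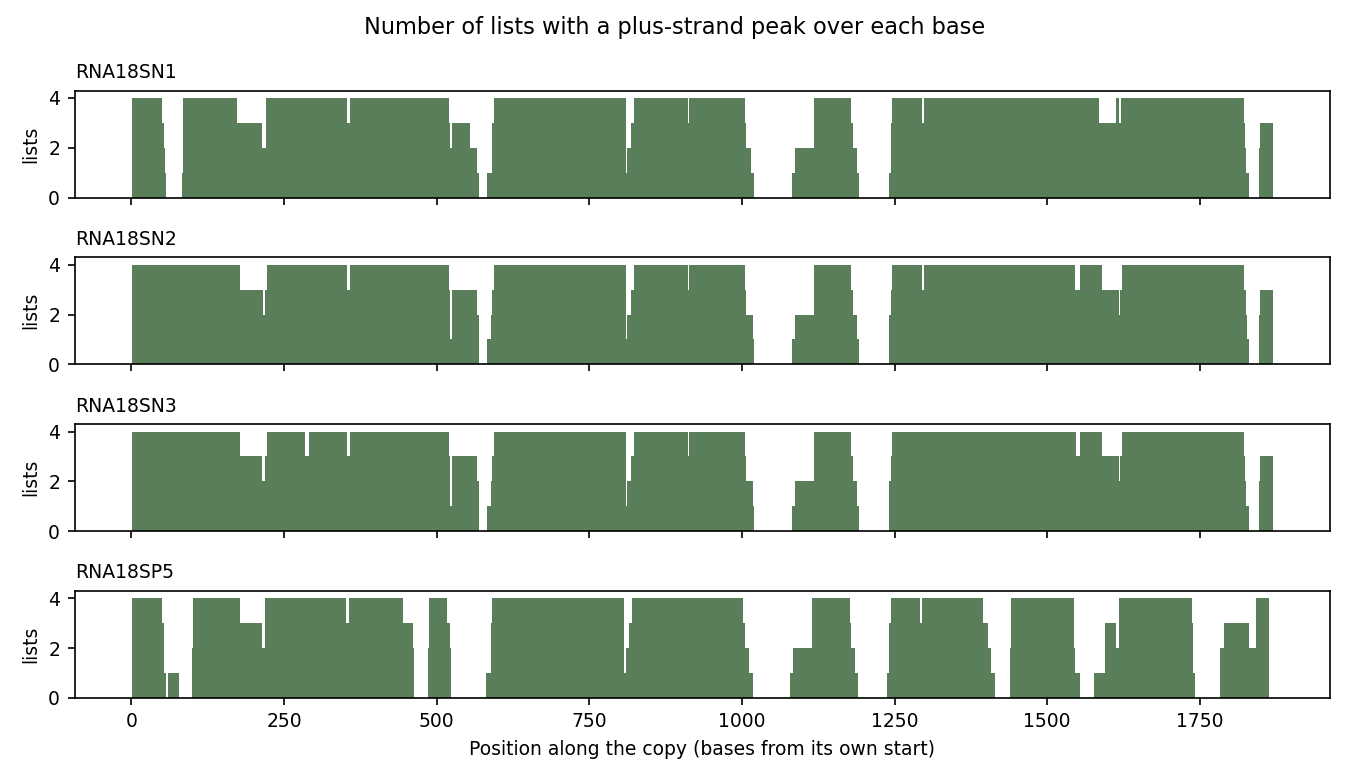
Number of lists, from 0 to 4, with a plus-strand peak over each base of the 4 copies on chromosome 21, against the position in bases from each copy's own start. RNA18SN1, RNA18SN2 and RNA18SN3 share the gaps at 1021 to 1081 and 1192 to 1241. RNA18SP5 has gaps at 1018 to 1078 and 1190 to 1238 of its own positions, and further gaps such as 1743 to 1783.

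The gene copies RNA18SN2 and RNA18SN3 repeated most of the pattern of RNA18SN1. RNA18SN2 carried 12, 17, 9 and 19 peaks and RNA18SN3 the same numbers, in the order HSPA1A replicates 1 and 2, HSPA8 replicates 1 and 2. Of the 12, 19, 10 and 21 peaks on RNA18SN1, 9, 15, 7 and 15 had a peak on RNA18SN2 with both ends within 5 bases, and 9, 15, 7 and 13 on RNA18SN3. The median difference in score between such matched peaks was 0.751% to 4.27% on RNA18SN2 and 0.881% to 3.15% on RNA18SN3. The best peak had the same outer limits on both copies as on RNA18SN1 in each list. Both copies lacked the gap from 57 to 83: there a single stretch from 2 to 178 was covered in all 4 lists. Their covered share was 89.4% and 84.9% for HSPA1A and 88.9% and 85.9% for HSPA8 on RNA18SN2, and within 0.3 percentage points of these on RNA18SN3.

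The pseudogene RNA18SP5 differed from the genes in where peaks broke off. It carried 14, 18, 13 and 20 peaks, and its covered share was 78.4% and 70.7% for HSPA1A and 81.5% and 71.9% for HSPA8, below each gene copy in every list. It had 8 stretches of at least 10 bases with no peak in any list, 298 bases in all, against 5 stretches and 167 bases on RNA18SN1. The stretches 464 to 485, 1415 to 1438, 1554 to 1576 and 1743 to 1783 were free of peaks on this copy in all 4 lists, whereas the same positions of RNA18SN1 were covered in all 4 lists. The best peak was again the site just described, from 1084 to 1185 and 1116 to 1178 for HSPA1A and from 1079 to 1189 and 1116 to 1176 for HSPA8. Its scores of 4610, 1477, 5733 and 967 were close to those on RNA18SN1, and in HSPA8 replicate 1 it was the highest of the whole list.

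Peaks on RNA18SP5 were also displaced in register. Both ends of 25 peaks moved together, by at most 5 bases, relative to a peak on RNA18SN1. The 7 of them that ended at or before position 361 of RNA18SN1 were displaced by 0 or -1 base. The other 18, which lay between 594 and 1295, were each displaced by -3 bases. Peaks whose ends moved unequally or by more than 5 bases were left out, so these values do not describe the whole copy. At the 3′ end, the last inner interval in replicate 2 of each bait ran from 1850 to 1869 on RNA18SN1. On RNA18SP5 it ran from 1844 to 1863. The pseudogene is 6 bases shorter than the gene, and how the sequences align was not tested.

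**Figure D4:**
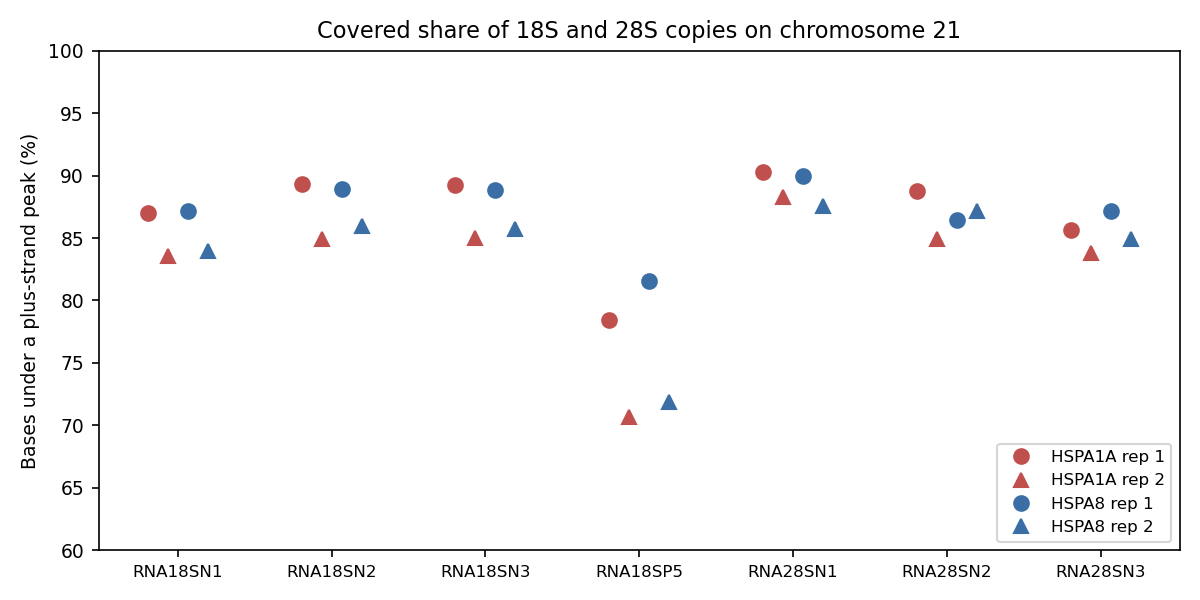
Share of bases under a plus-strand peak, in percent, for the 18S and 28S copies on chromosome 21; each point is 1 list, coloured by bait and shaped by replicate, and the axis starts at 60%. RNA18SP5 lies lowest, between 70.7% and 81.5%, and the 3 18S genes lie between 83.6% and 89.4%.

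28S RNA, the RNA of the large subunit from the same precursor, was set beside 18S RNA in each list. RNA28SN1, of 5066 bases, was covered over 90.3% and 88.3% of its length for HSPA1A and 90.0% and 87.6% for HSPA8. RNA18SN1 was covered less in 4 of 4 lists, with a mean difference of -3.62 ± 0.821 percentage points (SD, n = 4 lists; exact sign-flip permutation, two-sided, p = 0.125, the smallest possible). The direction depended on the copy: RNA18SN2 exceeded RNA28SN2 by 0.457 percentage points on average (exact permutation, p = 0.75), and RNA18SN3 exceeded RNA28SN3 by 1.85 in 4 of 4 lists (exact permutation, p = 0.125). Peaks were about as dense on both RNAs, with 6.42 and 10.2 peaks per kb of RNA18SN1 for HSPA1A and 5.35 and 11.2 for HSPA8, against 7.11, 11.6, 5.72 and 10.5 on RNA28SN1. The best score on RNA18SN1 was above the best on RNA28SN1 in every list: 4622 against 3557 and 1486 against 581 for HSPA1A, and 5656 against 5195 and 977 against 444 for HSPA8. Among the 10 highest-scoring peaks of a list, 18S copies held 4, 4, 4 and 3, and the 28S copies 5, 0, 1 and 0. Each of these 18S peaks was the best peak of its copy, so the 18S counts are 1 site counted once per copy. The counts cannot be set between baits as they stand, since each HSPA8 list had 4 more of its top 10 on 18S copies of unplaced scaffolds, which the HSPA1A lists do not hold. With scaffolds left out, 18S copies held 4, 4, 6 and 4 of the top 10 and 28S copies 5, 0, 4 and 0. The 6 of HSPA8 replicate 1 are not 1 site alone. They include the peaks from 1419 to 1619 on RNA18SN3 and RNA18SN2, with scores of 4924 and 4908. Among the 50 highest-scoring peaks, scaffold peaks of HSPA8 included, the 4 18S copies held 13, 4, 13 and 4. The 3 28S copies held 23, 2, 8 and 1 of these. The 5.8S gene RNA5-8SN1, between the 2 in the precursor, carried 2 peaks in each list, with best scores of 1372, 181, 1905 and 138. The whole precursor gene RNA45SN1 carried 97 and 154 peaks for HSPA1A and 82 and 160 for HSPA8.

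Counts of peaks per gene put 18S RNA beside the other genes. Over the 2914 genes with a peak, 4.08% had more peaks in both HSPA1A lists than in both HSPA8 lists, and 0.137% the reverse. None of the 4 18S copies was in either set, since their HSPA1A counts lay between the HSPA8 counts. A peak was present in all 4 lists at 17.9% of those genes, the 4 copies included. Outside ribosomal DNA, 54 genes with a peak in all 4 lists and at least 10 peaks were compared with RNA18SN1. The 3 whose peak counts over the lists were most like its own were RNR1, RN7SK and HFM1. RNR1, the mitochondrial small-subunit ribosomal RNA, carried 7 and 8 peaks for HSPA1A and 5 and 10 for HSPA8, at a Euclidean distance of 0.0568 between shares. RN7SK, the RNA that holds the elongation factor P-TEFb inactive, carried 3, 4, 3 and 4 at 0.0805, and HFM1, a meiotic DNA helicase gene, 4, 5, 2 and 4 at 0.110. The likeness rests on 4 lists.

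Other genes of the small subunit were counted from fixed lists, which were drawn up with earlier results of these data known. Their shares are therefore descriptions only. Of all genes in the table, 4.94% carried a peak in some list, and 17.9% of those did so in all 4. Of 13 small nucleolar RNA genes that serve 18S processing or modification, 10 (76.9%) carried a peak in some list and 8 in all 4: the U3 genes SNORD3A, SNORD3B-1, SNORD3B-2, SNORD3C and SNORD3D, the U17 genes SNORA73A and SNORA73B, and SNORD13, which guides an acetylation of 18S RNA. SNORD3A scored highest, with 330 and 73 for HSPA1A and 272 and 97 for HSPA8, below the best 18S peak of each list. The U3 genes are near-identical, so their peaks cannot be tied to a copy, and the counts of 10 and 8 hold the U3 signal several times. The U14 genes reached at most 3 lists: SNORD14C carried 1 peak in 3 lists and SNORD14E 1 peak in HSPA8 replicate 2. Of 33 genes for proteins of the small subunit, 12 (36.4%) carried a peak in some list and 2 in all 4, which is 16.7% of the 12 and near the share over all genes. These were RPS12, with scores of 11 and 6 for HSPA1A and 5 and 6 for HSPA8, and RPS29, with 45 and 10 against 83 and 6. Of 11 genes for proteins that process or modify 18S RNA, 2 (18.2%) carried a peak: NOP56, a core protein of box C/D ribonucleoproteins, in all 4 lists with scores of 7 to 11, and BUD23, an 18S methyltransferase, in HSPA1A replicate 2. Peaks were assigned to these genes without regard to strand, and a gene can hold a smaller RNA gene inside it.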

How the data were processed

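FLASH-seq peak lists of HSPA1A and HSPA8, 2 biological replicates each, were analysed. Per the labels' protocols, PCR duplicates were merged by random tags. The submitters' processing notes name GRCh38, Trim Galore 0.4.4, FastQC, STAR 2.6.0b and deepTools without a role. The peak caller, its threshold and the handling of reads that map to several places are not given in the sources used here. The authors deposited a whole-number score per peak of unstated meaning, and it was used within a list only. Peaks were assigned to genes of the RefSeq table for GRCh38.p14, which gives no strand, by an overlap of at least 1 bp. Counts used both strands, and covered bases used the plus strand. Chromosome names were stripped of a prefix, and genes of scaffolds, patches and alternate loci were left out. Tests were exact permutations over lists. Members and gene lists were chosen with earlier results of these data known. The rule for named genes took the members, their neighbours in the repeat, listed genes with peaks in all 4 lists, the 3 genes of most similar peak counts, and on RNA18SN1 the best peaks and shared segments of at least 10 bases. SNORD14C, SNORD14E, BUD23, the gaps, the pseudogenes on other autosomes and the count without scaffolds were chosen after their values were seen. Alternatives were other copies, a stricter score, equal list lengths, a larger overlap, strand, merging, left-out replicates and the replicate block. Functions were tested on 200 simulated lists, and all 200 were recovered. Scripts ran in Python 3.11.15 with scipy 1.17.1, pandas 2.3.3, matplotlib 3.10.9 and numpy 2.4.6.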

Additional observations from a re-analysis of the deposited data

Results flagged for a closer look

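Peaks on 18S sequences outside the 4 copies were seen in data that the comparisons above do not use. The HSPA8 lists include unplaced scaffolds, and 38 peaks of replicate 1 and 80 of replicate 2 lay on 4 further 18S copies there. The gene table names no scaffold for them, so RNA18SN5 and RNA18SP3 were read on GL000220.1 and RNA18SN4 and RNA18SP4 on KI270733.1, where most of the peaks matched the limits of a peak on RNA18SN1 within 5 bases. The best peak of each copy had the same limits as on RNA18SN1, 1082 to 1191 in replicate 1 and 1119 to 1179 in replicate 2. Its scores were 5433 to 5662 and 970 to 977. The HSPA1A lists hold no scaffold peaks, so this has no counterpart for HSPA1A. Because the scaffolds were read from matching peak limits, the equal limits of the best peak are not an independent check of the site.

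The 6 annotated 18S pseudogenes on other autosomes carried 81 and 34 peaks for HSPA1A and 86 and 24 for HSPA8, and each of the 6 carried a peak in every list. Their best scores lay between 77 and 174, 17 and 36, 55 and 175, and 13 and 28 in the same order, below the best peak on RNA18SN1. All peaks of a pseudogene lay on 1 strand, and positions were counted from the 5′ end on that strand. The best peak fell on the shared best site of RNA18SN1, 1119 to 1179, in all 4 lists on 2 pseudogenes and in no list on the other 4. The 2 were LOC110467536 on chromosome 14 and LOC110467534 on chromosome 22, each with the best peak at 1148 to 1189 and 1129 to 1194 for HSPA1A and at 1147 to 1188 and 1129 to 1193 for HSPA8. Both had scores of 77, 23, 55 and 19, and with equal limits and scores in every list the 2 cannot be counted as separate signals. On the other 4 the best peak lay elsewhere, in HSPA1A replicate 1 at 876 to 927 on LOC110467533, 525 to 583 on LOC110467538, 524 to 569 on LOC110467535 and 831 to 890 on RNA18SP. RNA18SP is only 1159 bases long, so positions from its own start cannot be set against those of RNA18SN1. The sequences were not aligned, so equal positions need not be equal bases. Whether reads of 18S RNA were placed on these sequences was not tested.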

How the results depend on the processing

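Of 82 values of 7 results under other settings, 69 kept their sign or, where the main difference was 0, stayed within the spread between replicates, and 13 reversed. No exact permutation p fell below 0.125, and none of these tests can reach 0.05, so an unchanged call says nothing about stability. Differences are HSPA1A minus HSPA8. The covered share, -0.268 percentage points, became 0.321 with peaks lying mostly inside the gene. Leaving out a replicate gave -1.98 to 1.44, positive without HSPA1A replicate 2 (1.44) or HSPA8 replicate 1 (1.34). For the centre of covered bases, 4.13 bases, leaving out a replicate gave -11.9 to 20.2, negative without HSPA1A replicate 2 (-11.9) or HSPA8 replicate 2 (-7.80). For the share of list peaks it gave -1.24 to 1.33, negative without HSPA1A replicate 2 (-0.769) or HSPA8 replicate 1 (-1.24), and counting the chromosomes of all 4 files gave -0.879. For the score rank it gave -0.0238 to 0.134, negative without HSPA1A replicate 1 (-0.0238) or HSPA8 replicate 2 (-0.0195). For the number of peaks it gave -5.5 to 5.5 around a difference of 0. The 18S minus 28S difference of -3.62 reversed to 0.457 with RNA18SN2 and 1.85 with RNA18SN3. The within minus between overlap of -1.24 reversed to 0.200 with the smaller list as the base (1-sided exact permutation, p = 0.333). The causes were not tested.

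Replicate numbers carry no shared day or batch in the labels. On RNA18SN1, lists of equal number deviated from their bait's mean with a correlation of 0.38 over bases and 2 pairs. With the replicate block, the covered share differed by -0.268 and the share of list peaks by 0.0442 (exact sign-flip permutation, p = 0.5 and p = 1; smallest possible 0.5), and no call changed. Read depth is unknown, and splitting or joining of neighbouring peaks by the caller changes every count of peaks.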
